A study of Mus musculus with 6 samples.

Results

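The genes of the SR, hnRNP and snRNP protein families were followed in 6 clonal MIN6 β cell lines, 3 control clones and 3 *Snd1* KO clones. MIN6 is a mouse insulinoma line that serves as a model of the insulin-secreting β cell. The parent cells expressed Cas9, a nuclease that a guide RNA directs to a matching stretch of DNA. In the control clones the guide was directed to an intron of *Snd1*, and in the *Snd1* KO clones guides were directed to *exon 2*. All 6 clones therefore carry Cas9 and a lentiviral guide under puromycin selection, each grew from a single cell, and each gave 1 library. Members were chosen by symbol, as protein-coding genes of GENCODE M21 with symbols beginning with Srsf and a digit, Hnrnp or Snrp, with *Snrpn* left out. The rule found 42 genes of the 53801 mouse genes listed, 11 of the SR family, 20 of the hnRNP family and 11 of the snRNP family.

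Introns are removed from pre-mRNA by the spliceosome, which is built from small nuclear ribonucleoproteins, or snRNPs. Each snRNP holds a small nuclear RNA, a ring of Sm proteins or, in U6, of LSm proteins, and proteins particular to that particle. The *Snrp* genes encode Sm proteins and some of the particular proteins of U1 and U2. SR proteins bind exons through RNA recognition motifs and recruit the spliceosome through domains rich in arginine and serine, whereas hnRNP proteins coat nascent RNA and often oppose them. SND1, the protein targeted in the *Snd1* KO clones, has a Tudor domain that binds methylated arginines of Sm proteins, and it has been found with spliceosomal snRNPs. Whether transcripts of these families differ in level between control and *Snd1* KO clones is the question addressed here. Splicing itself was not analysed here.

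Values are deposited TPM, reads per length of gene as a share of the library, in parts per 1000000. Recovered reads on genes ranged from 25829811 to 33003446 per clone. The methods of the study give a lower yield per library, and whether a recovered read stands for 1 end, a pair or another unit is not given in the sources used here, so these totals serve as relative depth only. *Snd1* stood at 113, 119 and 112 TPM in the control clones and at 14.7, 57.1 and 19.9 TPM in the *Snd1* KO clones, so every *Snd1* KO clone was below every control clone, and *Snd1* KO 2 kept the most transcript. All 10 β cell markers were detected, with sums of 54420 to 87576 TPM in the control clones and 62245 to 92430 TPM in the *Snd1* KO clones. Of 6 markers of other islet cells, 1 reached a mean of 1 TPM, *Gcg*, which encodes glucagon and ranged from 55.2 TPM in *Snd1* KO 2 to 1100 TPM in *Snd1* KO 1. Of 10 markers of cells outside the islet, 0 reached it, with sums of 0.196 to 4.88 TPM. Clones did not sort fully by genotype. Correlations are of log2 values over genes averaging 5 TPM or more. Control 3 correlated at 0.955 with *Snd1* KO 3 and at 0.949 with *Snd1* KO 2. With Control 1 and Control 2 it correlated at 0.943 and 0.936. Control 1 and Control 2 correlated at 0.98, and *Snd1* KO 2 and *Snd1* KO 3 at 0.974, above every other pair. The clones of a group were thus not equally far apart. In bulk RNA such as this, fewer cells of a type and less RNA per cell cannot be told apart.

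Promoter sequence was available from RefSeq (GRCm38.p6) for 38 of the 42 genes, as windows of 250 bases before and 50 bases after the start. The 4 shown here were chosen among windows whose upstream bases overlap 0 annotated exons. *Hnrnpa2b1* and *Hnrnpu* are among the members with every *Snd1* KO clone above every control clone, and the groups overlapped for *Hnrnpa1* and *Snrpa*. *Hnrnpa2b1* and *Hnrnpa1* start 466 and 616 bases from a gene for a heterochromatin protein on the other strand, *Cbx3* and *Cbx5*. Both of these starts lie beyond the 250 bases shown. *Snrpa* starts 490 bases from BC024978, which overlaps it on the other strand. Each line gives the 250 bases before the start, 5′ to 3′ on the strand of the gene, with capitals for the GC box GGGCGG, the ETS core CGGAAG and the NF-Y box CCAAT, or for their reverse complements. The stretches are chr6:51469895-51470144 on the minus strand for *Hnrnpa2b1*, chr1:178337816-178338065 on the minus strand for *Hnrnpu*, chr15:103240147-103240396 on the plus strand for *Hnrnpa1* and chr7:27196272-27196521 on the minus strand for *Snrpa*.
Hnrnpa2b1: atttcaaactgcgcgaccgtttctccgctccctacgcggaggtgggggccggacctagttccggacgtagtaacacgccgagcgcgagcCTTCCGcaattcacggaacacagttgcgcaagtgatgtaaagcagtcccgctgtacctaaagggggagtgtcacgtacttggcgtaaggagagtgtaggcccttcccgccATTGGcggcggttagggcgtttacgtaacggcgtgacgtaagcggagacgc
Hnrnpu: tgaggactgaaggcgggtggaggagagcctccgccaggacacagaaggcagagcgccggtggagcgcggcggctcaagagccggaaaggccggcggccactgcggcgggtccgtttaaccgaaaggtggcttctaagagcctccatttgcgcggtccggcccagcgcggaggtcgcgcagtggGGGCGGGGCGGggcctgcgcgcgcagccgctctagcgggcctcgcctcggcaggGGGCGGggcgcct
Hnrnpa1: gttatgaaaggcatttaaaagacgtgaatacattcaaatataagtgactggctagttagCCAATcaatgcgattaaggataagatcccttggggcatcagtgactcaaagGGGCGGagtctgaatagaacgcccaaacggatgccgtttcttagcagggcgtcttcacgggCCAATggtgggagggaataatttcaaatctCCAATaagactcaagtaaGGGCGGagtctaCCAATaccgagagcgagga
Snrpa: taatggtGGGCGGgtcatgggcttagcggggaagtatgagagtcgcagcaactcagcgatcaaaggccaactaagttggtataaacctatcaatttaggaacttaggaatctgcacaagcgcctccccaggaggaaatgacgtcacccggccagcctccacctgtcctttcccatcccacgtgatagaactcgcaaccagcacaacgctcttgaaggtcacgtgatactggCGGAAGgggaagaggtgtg

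GGGCGG, the letters bound by Sp factors, was found on either strand of the whole 300-base window for 28 of the 38 genes (73.7%), compared with 35.9% of 27025 windows, the first listed for each gene of the genome. CGGAAG, the core bound by ETS factors, was found for 17 (44.7%, compared with 17.2%), and CCAAT, the letters bound by NF-Y, for 19 (50.0%, compared with 37.9%). TATAAA was found for 5 (13.2%, compared with 14.2%). The remaining motifs searched were CACGTG, in 5 windows (13.2%, compared with 7.24%), and TGACGTCA, in 2 (5.26%, compared with 1.88%). Every motif searched but TATAAA thus had a higher share before these genes than over all windows, which include genes not expressed in these cells, and no share was tested. Among the 15 windows of genes for which every *Snd1* KO clone was above every control clone, 12 held GGGCGG, 4 held CGGAAG and 7 held CCAAT. Among the other 23 windows the counts were 16, 13 and 12. A match is a description of the letters and not a bound site.

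All 42 genes passed the filter, a mean over clones of 0.5 TPM or more. Deposited TPM values divide by the summed length of all transcripts of a gene, so levels of different genes were compared after recomputing TPM over the exonic bases of a gene, each taken 1 time, called exonic TPM below. *Hnrnpab*, *Hnrnpa2b1* and *Hnrnpa3*, genes for abundant proteins that bind nuclear RNA, had the highest levels, with means over the 6 clones of 579, 544 and 468 exonic TPM. *Srsf1*, *Srsf2* and *Srsf5* led the SR family with 225, 218 and 202 exonic TPM. *Snrpb*, *Snrpe* and *Snrpf*, which encode Sm proteins shared by the spliceosomal snRNPs, led the snRNP family with 134, 133 and 131 exonic TPM. These orders cover 36 members. For the other 6, *Srsf3*, *Srsf7*, *Hnrnpm*, *Hnrnpul2*, *Snrpc* and *Snrpd1*, the gene length behind the deposited values differs from GENCODE M21 and is not known, so neither a level per length nor reads are given, while ratios between clones do not depend on it. Within each family the ranges of these 3 leading genes over the clones overlapped, so their order is not resolved, with *Hnrnpab* from 467 to 686 and *Hnrnpa2b1* from 415 to 666 exonic TPM. *Srsf12*, an SR gene of narrow tissue range, was lowest with 6.15 exonic TPM and between 35 and 276 reads per clone, while each of the other 35 had at least 629 reads in every clone.

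**Figure D1:**
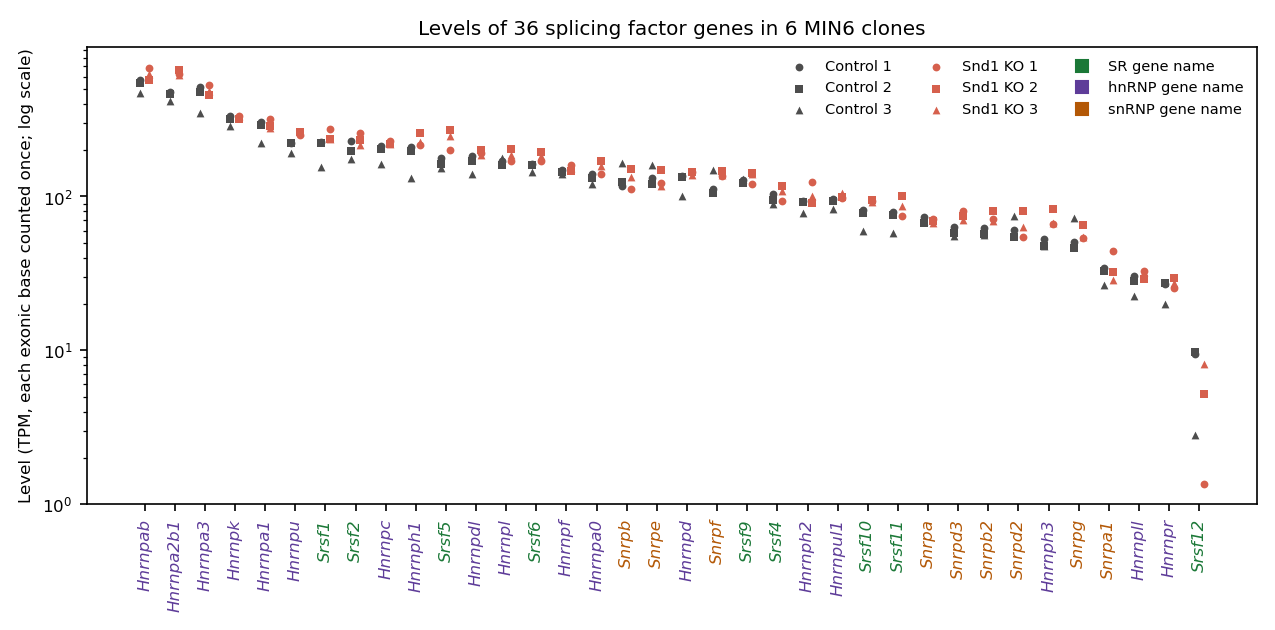
Level of 36 of the 42 genes, those with a known gene length (exonic TPM, log scale) in 3 control clones (grey) and 3 *Snd1* KO clones (red), ordered by the mean over clones, with gene names coloured by family. Means run from 579 for *Hnrnpab* to 6.15 for *Srsf12*, and the families overlap in level.

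Across the comparison of *Snd1* KO with control, members were mostly a little higher in the *Snd1* KO clones. The log2 fold change, on the scale of log2(TPM + 1), was above 0 for 38 of the 42 members (90.5%, compared with 57.3% of the 17823 genes tested). Its median was 0.21 over the members and 0.04 over all genes, and it ranged from -0.60 for *Srsf12* to 0.52 for *Srsf5* and *Hnrnph3*. With limma across all genes, 0 members passed an adjusted p-value of 0.05, 0 differed by 2-fold or more, and 0 passed with voom on the recovered reads. With clone quality weights, which count clones that stand apart less, *Srsf5*, *Hnrnpa2b1*, *Hnrnph3* and *Hnrnpm* passed, with limma adjusted p-values of 0.0224 to 0.03, as did 2164 of all genes. In all genes, 1 passed both an adjusted p-value of 0.05 and 2-fold, which is 0.00561%. At an unadjusted p-value under 0.05, 8 members were higher (19.0%, compared with 5.63% of all genes) and 0 were lower (compared with 2.33%). For 17 members every *Snd1* KO clone was above every control clone (40.5%, compared with 9.69%), and for 0 every *Snd1* KO clone was below (compared with 4.03%). Among genes averaging 5 TPM or more the shares were 5.43% higher and 2.66% lower at an unadjusted p-value under 0.05, 9.38% with every *Snd1* KO clone above and 4.57% with every one below, and 0.0088% past both an adjusted p-value of 0.05 and 2-fold.

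Counts over all genes and over the members both depended on the scaling. As reported, 1003 genes were higher and 416 lower at an unadjusted p-value under 0.05. With quantile normalization these were 719 and 733, and with median ratio scaling 829 and 647. The members higher at that threshold were 9 with quantile normalization and 8 with median ratio scaling, with 0 lower under either, and every *Snd1* KO clone was above every control clone for 19 and 18 members (6.64% and 7.79% of all genes). With each of these scalings 38 members had a log2 fold change above 0, and the share over all genes was 48.2% and 51.2%. When insulin and mitochondrial genes were removed before scaling, 10 members were higher at the threshold (7.12% of all genes), 23 did not overlap (12.9%) and 40 were above 0 (63.9%).

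**Figure D2:**
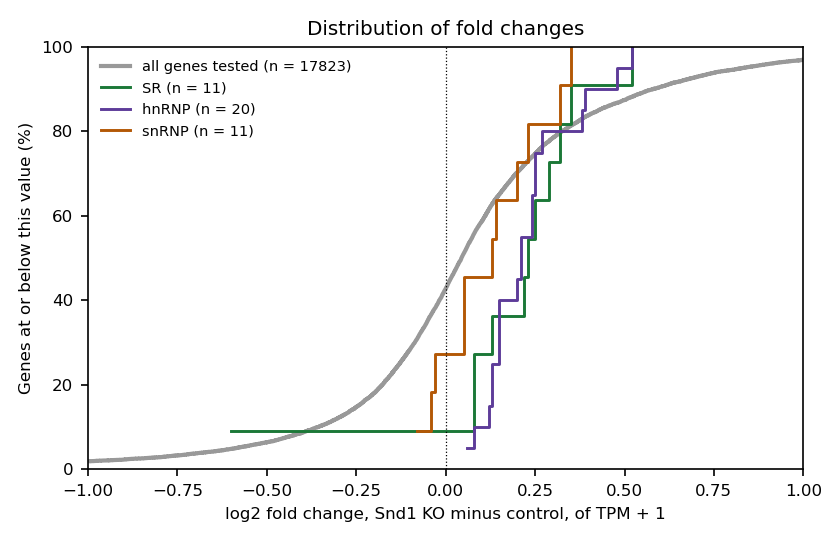
Cumulative share of genes (%) against the log2 fold change of TPM + 1, *Snd1* KO minus control, for all 17823 genes tested (grey) and the SR, hnRNP and snRNP members. The SR and hnRNP curves lie to the right of the grey curve through their middle, with medians of 0.23 and 0.21, and the snRNP median of 0.13 lies between these and the 0.04 of all genes.

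Counts by family rest in part on 1 clone, as given with the values without Control 3. The shares of all genes were 57.3% above 0, 5.63% higher at the threshold and 9.69% with every *Snd1* KO clone above. Among the hnRNP genes 20 of 20 had a log2 fold change above 0, from 0.06 to 0.52, with 4 at an unadjusted p-value under 0.05 and every *Snd1* KO clone above every control clone for 10. Among the SR genes 10 of 11 were above 0, with 2 at that threshold and 4 without overlap. Among the snRNP genes 8 of 11 were above 0, with 2 at that threshold and 3 without overlap. These directions were the same with quantile normalization, median ratio scaling, exonic TPM and voom. After rescaling without insulin and mitochondrial genes *Snrpa* and *Snrpb* also had a log2 fold change above 0. Whether the families differ from each other was not tested.

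Summed exonic TPM gives the amount of transcript per family. It covers the 36 members with a known length. The 9 SR genes together stood at 1197, 1121 and 969 in the control clones and at 1284, 1395 and 1320 in the *Snd1* KO clones, a mean of 122% of control. The 18 hnRNP genes stood at 3927, 3750 and 3151 and at 4345, 4236 and 4199, a mean of 118% of control. In both sums every *Snd1* KO clone was above every control clone, with Control 3 lowest. The 9 snRNP genes stood at 704, 666 and 828 and at 745, 848 and 740, a mean of 106% of control, and the groups overlapped through Control 3 alone. Without Control 3, a comparison added after the values were seen, the means were 115%, 111% and 114% of control for the SR, hnRNP and snRNP sums. Since the members were chosen with results known, these sums are given with no test.

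Control 3 set much of the width of these differences. It was the lowest of the 6 clones for 30 of the 42 members, that is for 19 of 20 hnRNP genes, 8 of 11 SR genes and 3 of 11 snRNP genes. The median deviation of Control 3 from the mean of the 6 clones was -0.28 on the log2 scale over the members and -0.11 over all genes tested. For hnRNP and SR members it was -0.32 and -0.30, and for snRNP members it was 0.08. Control 3 was the highest control for 8 members, *Srsf9*, *Hnrnpl*, *Snrpb*, *Snrpc*, *Snrpd2*, *Snrpe*, *Snrpf* and *Snrpg*. These 8 have a median annotated exonic length of 1814 bases, compared with 4589 bases for the other 34. Control 3 also had the fewest recovered reads, and the part of depth, RNA quality or gene length in this was not tested.

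Without Control 3 the median log2 fold change was 0.144 over the members and 0.004 over all genes. For the hnRNP members it was 0.114, for the SR members 0.141 and for the snRNP members 0.206, so that the order of the families changed. Without this clone 17 of 20 hnRNP genes, 9 of 11 SR genes and 10 of 11 snRNP genes were above 0 (50.5% of all genes). *Srsf7*, *Hnrnpa1*, *Hnrnpa3* and *Hnrnpk* then had a log2 fold change below 0, whereas *Snrpb* and *Snrpe* then had one above 0. At an unadjusted p-value under 0.05, 6 members were higher without Control 3 (6.97% of all genes) and 0 were lower (6.91%). Every *Snd1* KO clone was above both remaining controls for 20 members (17.2% of all genes) and below both for 1, *Srsf12* (17.9%). Without Control 2 the median over the snRNP members was 0.027, and 6 of 11 were above 0 (58.9% of all genes). Without *Snd1* KO 2 also 6 of 11 snRNP genes were above 0 (55.5% of all genes). No member reached an adjusted p-value of 0.05 with limma without Control 3.

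**Figure D3:**
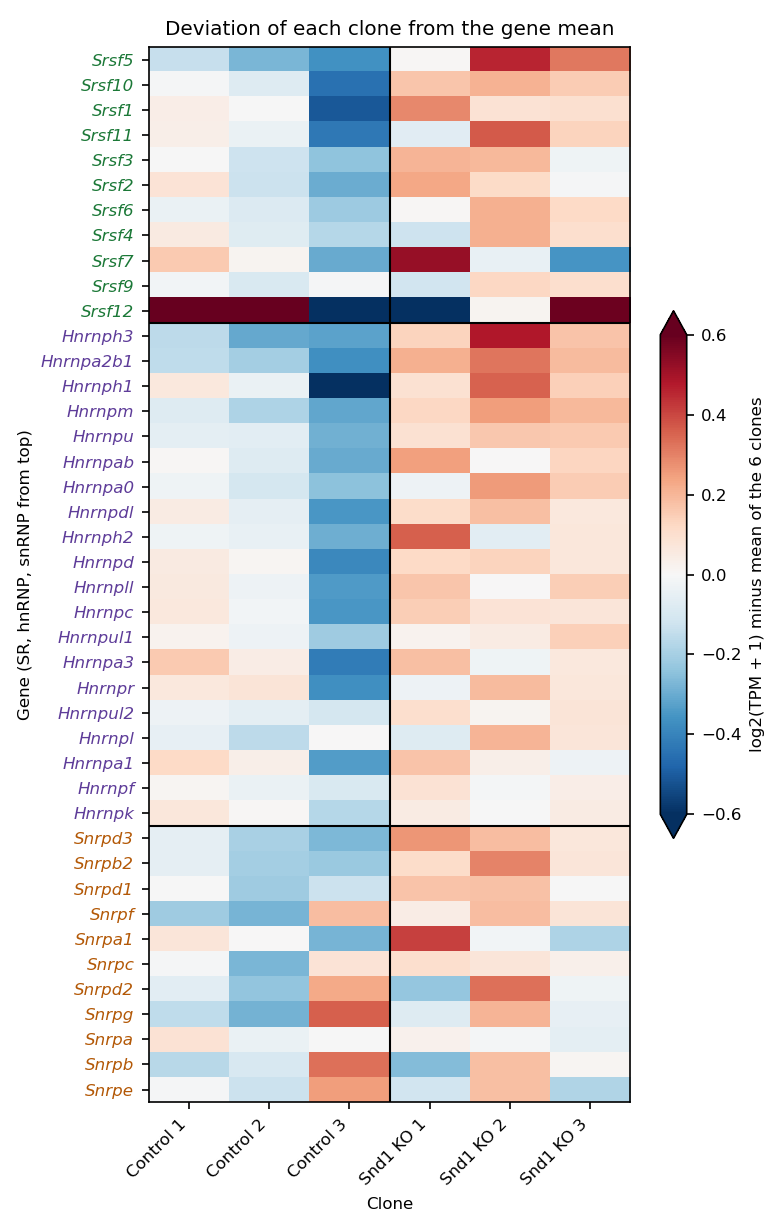
Log2(TPM + 1) of each member in each clone minus the mean of the 6 clones (color scale from -0.6 to 0.6), with SR, hnRNP and snRNP genes from top to bottom and genes sorted by fold change within a family. Control 3 is the lowest clone for 30 of the 42 genes, mostly SR and hnRNP genes, and *Snd1* KO 2 and *Snd1* KO 1 are the highest for 19 and 15.

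The largest difference relative to its spread among hnRNP genes was that of *Hnrnpa2b1* (ENSMUSG00000004980), on the minus strand of chromosome 6 from 51460932 to 51469894. Its product binds RNA in the nucleus, takes part in RNA transport and has been described as a reader of N6-methyladenosine. It stood at 264, 254 and 227 TPM in the control clones and at 340, 366 and 335 TPM in the *Snd1* KO clones, so the lowest *Snd1* KO clone was above the highest control clone. The means were 248 ± 19.2 TPM and 347 ± 16.5 TPM (SD, n = 3 each), 140% of control. The log2 fold change was 0.48 with a standard error of 0.11, and with limma the unadjusted p was 0.00322 and the adjusted p 0.537. The gene overlaps 0 other annotated genes.

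*Hnrnph3* (ENSMUSG00000020069, chromosome 10, minus strand, 63014664 to 63024217) encodes a member of the hnRNP H group, which binds runs of G. It stood at 32.8, 29.4 and 29.1 TPM in control and at 40.3, 51.5 and 41.4 TPM in *Snd1* KO clones. *Snd1* KO 2 was highest and the groups did not overlap. The log2 fold change was 0.52 with a standard error of 0.13 (limma, unadjusted p = 0.00582, adjusted p = 0.556). *Rufy2* lies over it on the opposite strand, with a log2 fold change of -0.02. The strand setting of the counting is not given in the sources used here, so reads of overlapping genes cannot be told apart.

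The related gene *Hnrnph1*, whose product binds the same kind of G-rich sequence, varied more between control clones. It stood at 78.2, 72.9 and 48.7 TPM in control and at 79.7, 95.9 and 82.7 TPM in *Snd1* KO clones. Control 3 was far below the other two controls, and only a narrow gap separated Control 1 from *Snd1* KO 1. Its log2 fold change was 0.39 with a standard error of 0.19 (limma, unadjusted p = 0.086, adjusted p = 0.615), 0.183 without Control 3 and 0.519 without Control 1, where it passed the unadjusted threshold. *Hnrnpf*, from the same group, had a log2 fold change of 0.08 with a standard error of 0.09, and *Hnrnph2* one of 0.24 with a standard error of 0.15.

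*Hnrnpm* (ENSMUSG00000059208, chromosome 17, minus strand, 33646233 to 33686860) encodes a regulator of alternative exons that binds GU-rich RNA. It stood at 80.0, 74.4 and 68.0 TPM in control and at 92.4, 101 and 96.9 TPM in *Snd1* KO clones, without overlap. Its log2 fold change was 0.38 with a standard error of 0.10 (limma, unadjusted p = 0.00857, adjusted p = 0.568). *Hnrnpu* (ENSMUSG00000039630, chromosome 1, minus strand, 178321108 to 178337797) encodes a nuclear scaffold protein that binds both RNA and chromatin. Its levels were 242, 241 and 206 TPM in control and 268, 282 and 281 TPM in *Snd1* KO clones. The groups did not overlap, and Control 3 lay below the other controls. Its difference on the log2 scale was 0.27 with a standard error of 0.11 (limma, unadjusted p = 0.0412, adjusted p = 0.607). *Cox20* overlaps it on the opposite strand and had a log2 fold change of 0.32.

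Of the other most abundant hnRNP genes, *Hnrnpab*, for a protein that binds single-stranded nucleic acid, stood at 440, 416 and 355 TPM in control and at 520, 439 and 479 TPM in *Snd1* KO clones, and *Snd1* KO 2 fell just below Control 1. *Hnrnpa3* stood at 368, 341 and 247 TPM in control and at 374, 325 and 345 TPM in *Snd1* KO clones. Control 3 alone was low, and the other 5 clones overlapped fully. The log2 fold changes were 0.25 for *Hnrnpab* and 0.15 for *Hnrnpa3* (limma, adjusted p = 0.636 and 0.833), and without Control 3 they were 0.16 and -0.027. *Hnrnpa1*, a well known antagonist of SR proteins in exon choice, had a log2 fold change of 0.12 with a standard error of 0.15, and *Hnrnpk*, for a protein that binds C-rich RNA, one of 0.06 with a standard error of 0.10. The remaining hnRNP genes without overlap, all higher in *Snd1* KO clones, were *Hnrnph1*, *Hnrnpdl*, *Hnrnpc*, *Hnrnpd*, *Hnrnpul1* and *Hnrnpul2*, at 109% to 129% of control.

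*Srsf5* (ENSMUSG00000021134, chromosome 12, plus strand, 80945504 to 80950507) encodes an SR protein that binds exonic enhancers. It stood at 59.6, 54.1 and 50.8 TPM in control and at 66.1, 90.6 and 82.1 TPM in *Snd1* KO clones. All 3 *Snd1* KO clones were above the controls but lay far apart from each other, *Snd1* KO 1 being closest to the controls. The means were 54.8 ± 4.44 TPM and 79.6 ± 12.4 TPM (SD, n = 3 each), with a log2 fold change of 0.52 and a standard error of 0.14 (limma, unadjusted p = 0.00909, adjusted p = 0.568).

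*Srsf10* (ENSMUSG00000028676, chromosome 4, plus strand, 135855747 to 135869908) encodes an SR protein that acts as a repressor of splicing when dephosphorylated. Its levels were 52.8, 50.2 and 38.6 TPM in control and 59.7, 61.5 and 59.0 TPM in *Snd1* KO clones. The *Snd1* KO clones lay within a narrow band above the controls, and Control 3 was far below the other controls. The log2 fold change was 0.35 with a standard error of 0.14 (limma, unadjusted p = 0.0396, adjusted p = 0.607). It was 0.217 without Control 3.

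*Srsf3* and *Srsf6* lay just outside the threshold, with unadjusted p-values of 0.0666 and 0.0722 (limma, adjusted p = 0.607 for each). *Srsf3* encodes the smallest SR protein, with a role in mRNA export besides splicing, and stood at 136, 125 and 115 TPM in control and at 157, 156 and 134 TPM in *Snd1* KO clones. *Srsf6* stood at 146, 142 and 129 TPM and at 151, 174 and 163 TPM. *Srsf6* did not overlap between groups and *Srsf3* did. Each passed the unadjusted threshold in 3 of 19 alternatives. The log2 fold change of *Srsf3*, 0.253 as reported, was 0.109 with clone quality weights (limma, unadjusted p = 0.216). That of *Srsf6*, 0.225 as reported, was 0.2 with these weights (limma, unadjusted p = 0.0144). Just inside the threshold were *Hnrnpu* and *Srsf10*.

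*Srsf1*, the first SR protein described and a factor for many exonic enhancers, stood at 170, 165 and 116 TPM in control and at 202, 176 and 177 TPM in *Snd1* KO clones. The groups did not overlap, and Control 3 was far below the rest. Its log2 fold change was 0.32 with a standard error of 0.17 (limma, adjusted p = 0.64), 0.141 without Control 3 and 0.124 with clone quality weights. *Srsf2*, which activates exons and has a role in transcription elongation, stood at 146, 126 and 112 TPM and at 162, 149 and 137 TPM, with *Snd1* KO 3 below Control 1, and its log2 fold change of 0.23 was 0.134 without Control 3 and 0.077 with clone quality weights. It shares bases with *Mettl23* and *Mfsd11* on the opposite strand.

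*Srsf7* and *Srsf12* were the least uniform SR genes. *Srsf7*, for a zinc knuckle SR protein, stood at 524, 475 and 381 TPM in control and at 675, 455 and 367 TPM in *Snd1* KO clones. *Snd1* KO 1 was the highest of the 6 clones and *Snd1* KO 3 the lowest, and the log2 fold change was 0.08 with a standard error of 0.24. *Srsf12* stood at 12.8, 13.0 and 3.75 TPM in control and at 1.80, 6.99 and 10.9 TPM in *Snd1* KO clones. Control 3 and *Snd1* KO 1 were both low, and the groups overlapped. Its log2 fold change of -0.60 had a standard error of 0.64 (limma, adjusted p = 0.813), and it was 0.005 without *Snd1* KO 1 and -1.112 without Control 3.

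**Figure D4:**
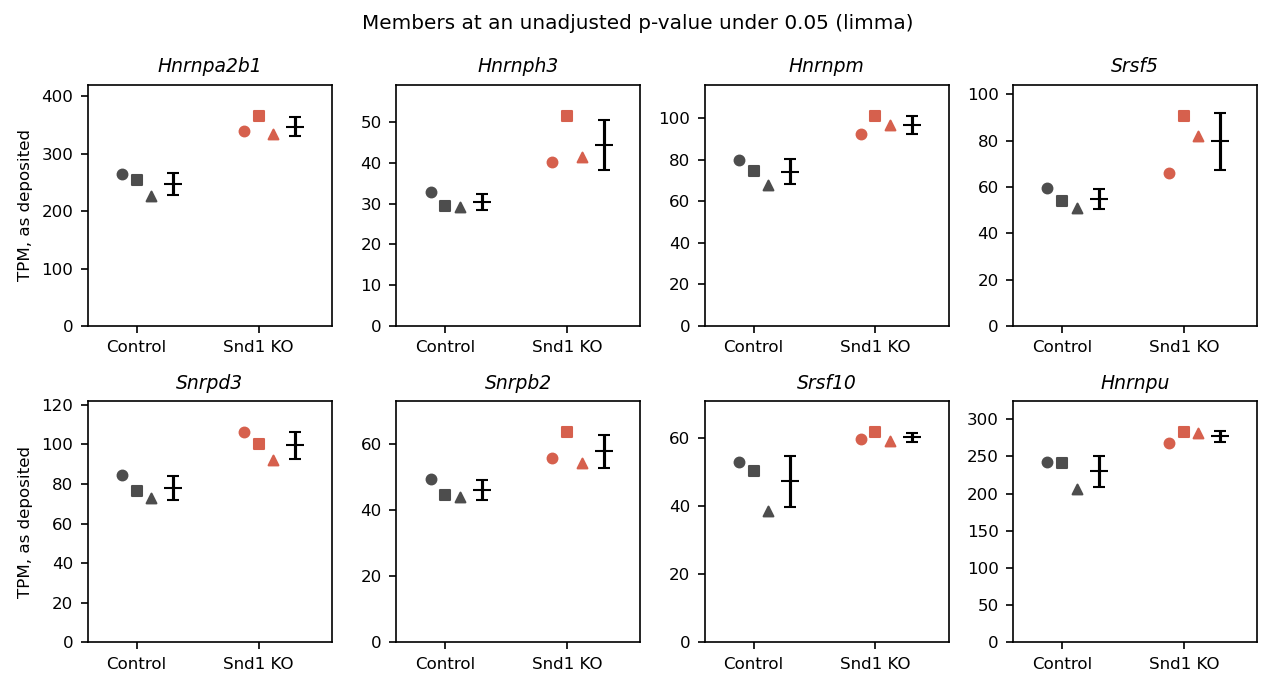
TPM, as deposited, of the 8 members at an unadjusted p-value under 0.05, with 1 point per clone (grey for control, red for *Snd1* KO, with circle, square and triangle for clones 1, 2 and 3) and the mean with SD beside them. In each panel the lowest *Snd1* KO clone is above the highest control clone, and group means are 121% to 146% of control.

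The Sm genes encode the proteins of the ring around small nuclear RNA, and the arginine and glycine tails of SmB, SmD1 and SmD3 are methylated and bound by Tudor domains. *Snrpd3* (ENSMUSG00000020180, chromosome 10, plus strand, 75517551 to 75537381), the gene for SmD3, stood at 84.6, 76.6 and 72.8 TPM in control and at 106, 100 and 92.3 TPM in *Snd1* KO clones. The groups did not overlap, and the log2 fold change was 0.35 with a standard error of 0.11 (limma, unadjusted p = 0.0157, adjusted p = 0.568). *Gucd1* overlaps it on the opposite strand and had a log2 fold change of -0.11. *Snrpd1*, the gene for SmD1, stood at 565, 487 and 517 TPM in control and at 637, 638 and 565 TPM in *Snd1* KO clones, with *Snd1* KO 3 just above Control 1. Its log2 fold change was 0.23 with a standard error of 0.12 (limma, unadjusted p = 0.097, adjusted p = 0.629).

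*Snrpb*, the gene for SmB, did not share this order. It stood at 84.0, 88.3 and 119 TPM in control and at 78.6, 107 and 95.1 TPM in *Snd1* KO clones. Control 3 was the highest clone and *Snd1* KO 1 the lowest, and the log2 fold change was -0.04 with a standard error of 0.18. Left out in turn, single clones moved it from -0.146, without *Snd1* KO 2, to 0.108, without Control 3. *Snrpe* and *Snrpg*, for SmE and SmG, were also highest in Control 3. *Snrpe* stood at 101, 92.6 and 121 TPM in control and at 93.5, 115 and 89.5 TPM in *Snd1* KO clones, and *Snrpg* at 50.1, 45.6 and 71.9 TPM and at 52.9, 64.4 and 53.8 TPM. The *Snd1* KO clones of each gene lay within or close to the range of the controls, and the log2 fold changes were -0.08 with a standard error of 0.15 and 0.05 with a standard error of 0.19. With 1 clone left out, *Snrpe* ranged from -0.187 without *Snd1* KO 2 to 0.03 without Control 3, and *Snrpg* from -0.078 without Control 2 to 0.244 without Control 3. *Snrpf*, for SmF, stood at 178, 170 and 235 TPM in control and at 213, 235 and 218 TPM in *Snd1* KO clones, with overlap through Control 3 alone. Its log2 fold change was 0.20 with a standard error of 0.15 (limma, adjusted p = 0.729), 0.349 without Control 3 and 0.115 without Control 2. At an unadjusted p-value under 0.05 it was higher without Control 3 (limma, unadjusted p = 0.013, adjusted p = 0.239) and with clone quality weights, which gave 0.315 (limma, unadjusted p = 0.00663, adjusted p = 0.0519). *Snrpd2*, for SmD2, had a log2 fold change of 0.05 with a standard error of 0.18.

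Of the genes for proteins of single particles, *Snrpb2* (ENSMUSG00000008333, chromosome 2, plus strand, 143063039 to 143072853), which encodes the B″ protein of U2, stood at 49.5, 44.6 and 44.0 TPM in control and at 55.6, 63.4 and 54.1 TPM in *Snd1* KO clones. The groups did not overlap, and the log2 fold change was 0.32 with a standard error of 0.11 (limma, unadjusted p = 0.0247, adjusted p = 0.585). *Snrpa1*, the gene for its U2 partner A′, stood at 24.1, 22.9 and 18.7 TPM and at 30.7, 22.6 and 20.0 TPM, with overlap. *Snrpa* and *Snrpc*, for the A and C proteins of U1, had log2 fold changes of -0.03 with a standard error of 0.10 and 0.13 with a standard error of 0.13. *Snrpa* was among the most even members, between 41.2 and 45.6 TPM in all 6 clones.

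Near-identical copies could limit some of these values, which was not tested. Many hnRNP and Sm genes have processed pseudogenes elsewhere in the genome, and how shared reads were assigned is not given in the sources used here. Of the 42 members, 21 overlap another annotated gene, 16 on the opposite strand.

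Other genes of the splicing pathway were taken from 6 lists with 168 genes in all, of which 160 passed the filter. Among these, 17 were higher at an unadjusted p-value under 0.05 (10.6%, compared with 5.63% of all genes) and 0 were lower, and 0 passed an adjusted p-value of 0.05 with limma. Every *Snd1* KO clone was above every control clone for 32 (20.0%, compared with 9.69% of all genes) and below for 2 (1.25%, compared with 4.03%), and the median log2 fold change was 0.10. Of 14 kinases and coactivators of SR proteins, 13 had a log2 fold change above 0, with a median of 0.25. *Clk1*, a kinase of SR proteins, was the one at the threshold (7.14%), with 27.6, 27.3 and 20.0 TPM in control and 29.6, 39.1 and 32.3 TPM in *Snd1* KO clones. The 16 genes of snRNP assembly include genes for the methylation and loading of Sm proteins, such as *Prmt5*, *Smn1* and *Gemin5*. Others act in the capping, export and nuclear maturation of small nuclear RNA, such as *Tgs1*, *Phax* and *Coil*. The 16 had a median of -0.01, with 7 above 0 (43.8%) and 0 at the threshold. In each direction 1 of them was without overlap (6.25%). *Prmt5*, the methyltransferase for Sm arginines, had a log2 fold change of -0.05 (limma, unadjusted p = 0.696), and *Smn1* one of 0.04.

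Whether these lists differ from each other was not tested. Shares in brackets below are of each list, compared with 5.63% of all genes higher at the threshold. The median log2 fold change over all genes was 0.04. Other proteins of the snRNPs, including the LSm ring and the minor spliceosome, had a median of 0.06 over 37 genes with 4 at the threshold (10.8%), and catalytic factors one of 0.08 over 34 genes with 4 (11.8%). Factors for splice site recognition had a median of 0.14 over 18 genes with 4 at the threshold (22.2%), and regulators of alternative splicing one of 0.15 over 41 genes with 4 (9.76%). Of single genes, *Rbm5*, a regulator of exons of apoptosis genes, stood at 11.5, 11.8 and 16.9 TPM in control and at 18.5, 26.6 and 24.0 TPM in *Snd1* KO clones, which is 0.74 higher on the log2 scale with a standard error of 0.20 (limma, unadjusted p = 0.00857, adjusted p = 0.568). Unlike most members, *Rbm5* was higher in Control 3 than in the other controls. *Ptbp2*, the neuronal paralog of the polypyrimidine tract binding protein, was at 144% of control, *Luc7l3*, a partner of U1, at 142%, *Lsm8*, of the U6 ring, at 136%, *Rbm25*, a partner of U1, at 132%, and *Ddx46*, an RNA helicase of the U2 step, at 126%. These 5 genes and *Rbm5* were named for an unadjusted p-value under 0.05 and no overlap between groups, so neither trait is a separate result. In all of them every *Snd1* KO clone was above every control clone. For the 5 genes the limma unadjusted p-values were 0.0146 to 0.0226 and the adjusted p-values 0.568 to 0.585.

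Of the 42 members, 13 start within 1000 bases of a tested protein-coding gene on the other strand, in a head-to-head arrangement. The neighbours of *Srsf2*, *Snrpa* and *Snrpd3*, which are *Mfsd11*, BC024978 and *Gucd1*, also overlap them. Since the strand setting of the counting is not known, reads of such pairs cannot be told apart. This comparison was chosen after the values were seen. The starts are 23 to 677 bases apart. The log2 fold change was above 0 for 12 of the 13 members and for 4 of the 13 neighbours (57.3% of all genes), with medians of 0.23 and -0.11, and it was lower for the neighbour than for the member in 12 of 13 pairs. The exception was *Srsf7*, at 0.08, with *Ttc39d* at 0.34, a neighbour of 0.715 to 2.48 TPM.

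*Hnrnpa2b1*, whose upstream bases are printed above, starts 466 bases from *Cbx3*. *Cbx3* stood at 31.1, 29.7 and 22.7 TPM in control and at 31.7, 28.0 and 31.4 TPM in *Snd1* KO clones. Groups overlapped for *Cbx3* and not for *Hnrnpa2b1*, and the log2 fold change of *Cbx3* was 0.13 with a standard error of 0.15. *Hnrnpa1* starts 616 bases from *Cbx5*, which had a log2 fold change of -0.11 with a standard error of 0.16. For 2 of the 13 neighbours every *Snd1* KO clone was below every control clone (4.03% of all genes). *Mfsd11*, next to *Srsf2*, had a log2 fold change of -0.33 with a standard error of 0.14, and 4930524J08Rik, next to *Hnrnpd*, one of -0.64 with a standard error of 0.22 (limma, unadjusted p = 0.0491 and 0.0229, adjusted p = 0.607 and 0.585). The difference between member and neighbour was not tested.

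**Figure D5:**
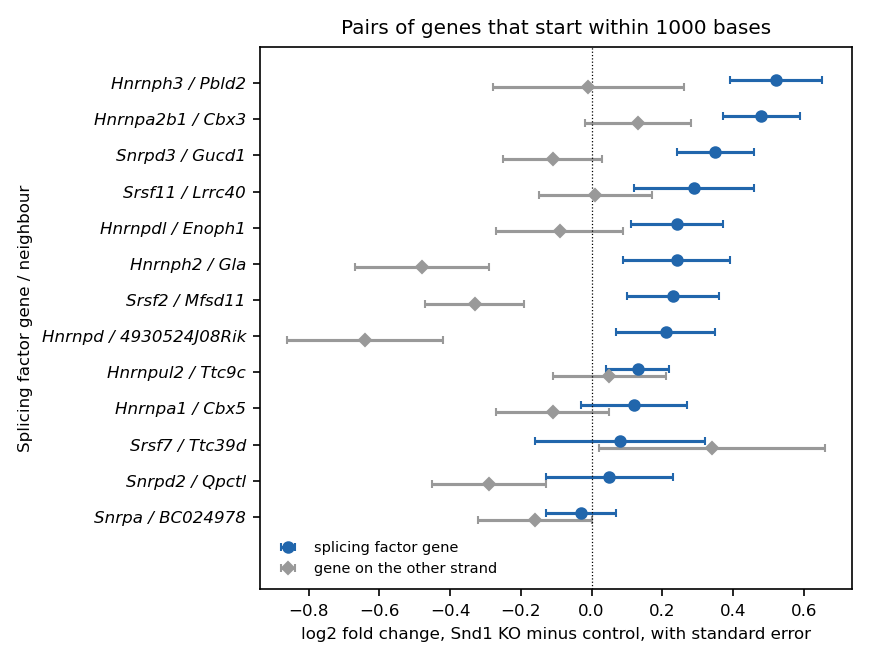
Log2 fold change of TPM + 1, *Snd1* KO minus control, with standard error, for 13 members (blue circles) and their neighbours (grey diamonds). Neighbours are protein-coding genes that start within 1000 bases on the other strand. The neighbour lies to the left of the member in 12 of 13 pairs, with medians of -0.11 and 0.23.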

How the data were processed

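RNA from 6 clonal MIN6 lines, 3 control and 3 *Snd1* KO with 1 library each, was sequenced as paired ends by the authors, who processed it on the Genialis platform and deposited TPM per gene. The submitters' processing notes name FastQC, Trimmomatic, HISAT2, HTSeq, DESeq2 and the build mm10, without versions. The annotation and the strand setting of the counting are not given in the sources used here. Groups were taken from the sample labels.

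Each library lists 53801 mouse genes and 99 spike-in rows, left out here, that summed to 1.02 TPM or less. Of the genes, 53706 were found in GENCODE M21 (GRCm38). When TPM was multiplied by the length summed over a gene's transcripts, 91.7% of 14851 genes came out at whole reads, within 0.01, in all clones. These reads gave the depth and the exonic TPM. For 6 members (*Srsf3*, *Srsf7*, *Hnrnpm*, *Hnrnpul2*, *Snrpc*, *Snrpd1*) no known length did so, and the shortest that did was used. The reads it gave could be off by a whole factor, so these 6 were left out of levels per length and of sums. Those reads did enter the depth totals, the scaling of exonic TPM, and the fits on exonic TPM and with voom. Depth covers counting error only.

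Log2(TPM + 1) was compared with limma 3.58.1 (with trend, in R 4.3.3) over the 17823 genes averaging 0.5 TPM or more, and p-values were adjusted over all of them by Benjamini-Hochberg. Exact permutation of 3 against 3 clones cannot give a p below 0.1. Python 3.11.15, numpy 2.4.6, pandas 2.3.3 and matplotlib 3.10.9 served for the rest. Alternatives were pseudocounts, filters, scalings, exonic TPM, voom, trends, clone quality weights, a replicate block and leaving out each clone. The members and the pathway and marker lists were chosen with earlier results of these data known. Members named were those with the largest moderated t at an unadjusted p under 0.05 or without overlap (up to 8 a direction), the 3 highest per family, *Snrpb*, *Snrpd1* and *Snrpd3*, the 3 of highest control SD, and those nearest the threshold. Pathway genes named were up to 6 a direction that met both criteria. Other genes were named after their values were seen.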

Additional observations from a re-analysis of the deposited data

How the results depend on the processing

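Under 19 alternatives 0 members were lower at an unadjusted p-value under 0.05. The share of all genes lower ran from 1.11% (without Control 1) to 14.4% (clone quality weights). The count of members higher at that threshold, 8 as reported, was 5 with limma without a trend (5.8% of all genes) and 5 with the replicate block by clone number (4.51%). It ranged from 4 to 9 when a clone was left out, being 9 without *Snd1* KO 1 (9.70%), 4 without Control 2 (2.88% of all genes) and 5 without *Snd1* KO 2 (3.28%). Without overlap between groups were 17 to 23 members, against 6.64% (quantile normalization) to 22.6% (without *Snd1* KO 1) of all genes higher without overlap, and the median log2 fold change of the members ranged from 0.144 to 0.272, with both ends of the median on leaving out a clone. *Hnrnpa2b1*, *Hnrnph3*, *Hnrnpm* and *Srsf5* stayed under an unadjusted p-value of 0.05 in all 19 alternatives, *Snrpd3* in 18, *Snrpb2* in 14, and *Srsf10* and *Hnrnpu* in 12 each. With clone quality weights, which were lowest for Control 3 (0.279) and *Snd1* KO 1 (0.286), limma gave these first 4 genes adjusted p-values of 0.0224 to 0.03. In that fit 2164 of the 17823 genes passed an adjusted p-value of 0.05. At an unadjusted p-value under 0.05, 12 members were higher (18.2% of all genes) and 0 were lower (14.4%). In the same fit 35 members had a log2 fold change above 0 (52.4% of all genes). The adjusted p-values of the first 4 genes reached 0.986 in other alternatives. Same-numbered clones deviated together at 0.115, -0.199 and -0.108, and differently numbered clones at -0.172 to 0.25. The sources used here do not say whether a clone number marks a shared culture. With 3 clones a group these correlations cannot decide it. With the block 803 genes were higher and 392 lower at an unadjusted p-value under 0.05.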

Other observations

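Of the splicing regulators, *Esrp1*, an epithelial factor for alternative exons, was singled out after its values were seen. It passed the filter on low values only through *Snd1* KO 1 and *Snd1* KO 2, so no test is given. It stood at 0.0175, 0.00 and 0.0203 TPM in the control clones and at 24.7, 3.39 and 0.00 TPM in the *Snd1* KO clones. The level in *Snd1* KO 3 was that of the controls, so the groups overlapped.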
